A study of Mus musculus with 6 samples.

Results

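This account concerns 123 genes for the membrane channels that carry potassium, sodium and calcium across the cell surface, out of 24951 genes counted by RNA sequencing in mouse lung endothelial cells. The set was defined by a pattern of gene symbols, with earlier results of these data known. It takes in the numbered Kcn genes of potassium channels and their auxiliary subunits, and the HCN genes. It also takes in the Scn genes for pore-forming sodium channel subunits and the Cacna and Cacnb genes for calcium channel subunits, with Scn7a left out. The mutant pups carried floxed Smad4 alleles (Smad4 f/f) and the Cdh5-CreERT2 transgene, and are labelled Smad4 iECKO mutant. The control pups were Smad4 f/f without the transgene and are labelled wildtype, so no group carried Cre with intact Smad4. Cdh5 is a gene of endothelial cells, and CreERT2 is a Cre recombinase that acts after tamoxifen, whose dose and day the labels do not give. Lungs were taken at postnatal day 5, cells were captured with CD31-coated beads, and polyadenylated RNA was sequenced from 3 mutant and 3 control libraries. The labels call the samples independent, in a sentence that names the mice HHT rather than Smad4. All 6 library names carry a common tag of unexplained meaning. Whether the pups shared a litter is not known here.

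Endothelial cells are not excitable in the manner of nerve or heart muscle, but their membrane voltage sets the driving force for calcium entry, and calcium in turn governs nitric oxide release and permeability. Inward rectifier potassium channels hold the resting voltage and respond to flow, and calcium-activated potassium channels spread hyperpolarization along vessels. Voltage-gated sodium, calcium and HCN channels are better known from neurons, heart and muscle. The pore-forming alpha subunits work with auxiliary subunits that set their gating and their delivery to the surface.

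Of the 123 channel genes, 115 had at least 1 count and 68 had enough counts to be tested. Among the 68, the T-type calcium channel gene Cacna1h and the inward rectifier gene Kcnj2 rose in the mutants. The voltage-gated potassium channel gene Kcnh1, the Kv1 auxiliary subunit gene Kcnab3, the pacemaker channel gene Hcn4 and the sodium channel gene Scn3a fell. The other 62 did not pass the test. In edgeR's quasi-likelihood test with Benjamini-Hochberg adjustment over all 14934 tested genes, 3.27% of genes were called at an adjusted p under 0.05, 1.93% higher and 1.34% lower, against 2 higher and 4 lower of the 68 channel genes, 8.82% in all. The median log2 fold change was -0.15 over the 68 and -0.00 over all tested genes. The 3 mutant and the 3 control libraries did not overlap in 24 of the 68, 12 above and 12 below, against 20.6% of all tested genes, 11.6% above and 9.04% below. A log2 fold change of at least 1 in size was found for 9 of the 68, against 2.31% of all tested genes. That comparison is not matched on level, and the part of level in it was not tested. An unadjusted p under 0.05 was found for 18 of the 68, against 14.0% of all tested genes. DESeq2 called 8 of the 68, against 5.05% of all tested genes, and limma-voom 5, against 2.96%. These are bulk libraries, in which fewer cells of a type and less RNA per cell cannot be told apart.

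Smad4 itself, the target of the deletion, stood at 88.8, 72.9 and 94.2 CPM (read counts scaled to a common library size) in mutant replicates 1, 2 and 3, and at 188, 177 and 181 CPM in control replicates 1, 2 and 3. Mutants differed from controls by -1.09 ± 0.10 on the log2 scale (SE, edgeR adjusted p = 0.000604). The libraries held 14093564 to 21113926 reads assigned to genes, and the floor of 3 counts corresponds to 0.140 to 0.214 CPM. Channel genes took 0.0698% to 0.0828% of the assigned reads. Of 17 pan-endothelial markers 1 was called higher and 3 lower, and their summed level was 13101, 13499.5 and 13129.5 CPM in mutant replicates 1, 2 and 3 and 13042.5, 12511 and 13869.5 CPM in control replicates 1, 2 and 3. Markers of general capillary cells were lower, with 7 of 14 called lower and 1 called higher, and summed levels of 7996, 7579 and 8373 CPM in the mutants and 10051, 9589.8 and 10405 CPM in the controls. Other endothelial lists also held called genes. Of 14 aerocyte markers 4 were called lower and 1 higher, and of 12 arterial markers 3 lower and 2 higher. Of 12 venous markers 1 was called lower, and the lymphatic marker Lyve1 was called higher. Summed levels of mutants and controls overlapped for the aerocyte, arterial and venous lists. Gene by gene, 7 of 14 aerocyte markers were lower in every mutant than in every control library, and 1 was higher. These numbers were 6 and 2 of 12 for the arterial list and 2 and 1 of 12 for the venous list. Over all tested genes the shares were 9.04% lower and 11.6% higher. The lymphatic sum, in which Lyve1 had the highest level, was higher in every mutant library than in every control library. Of the 7 tested lymphatic markers, 3 had a log2 fold change above 0 and 4 below, with a median of -0.13. The part of all these lists in the changes of channel genes was not tested.

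**Figure D1:**
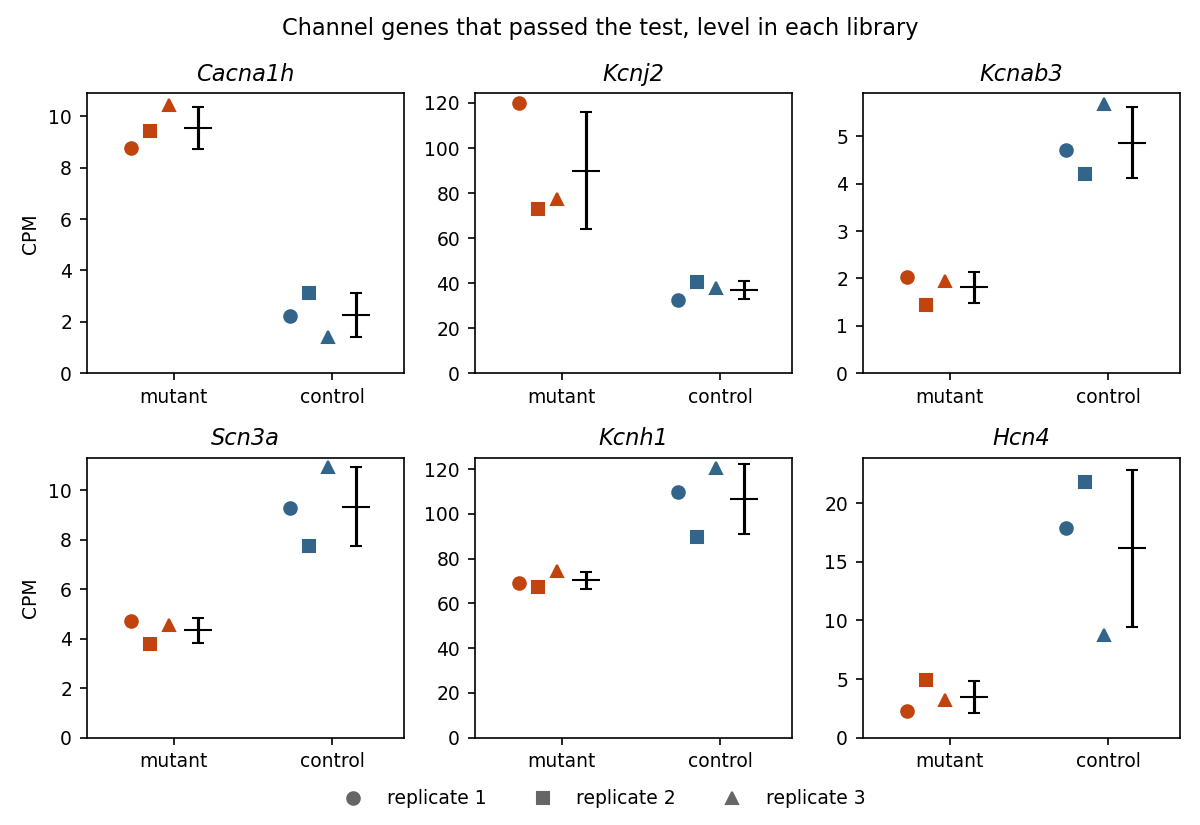
CPM of the 6 channel genes that passed the test (y axes, each from 0) in the 3 mutant and the 3 control libraries, with the mean and SD (n = 3) beside the points and replicate number as symbol. Cacna1h and Kcnj2 lie higher and Kcnab3, Scn3a, Kcnh1 and Hcn4 lower in every mutant library than in any control library.

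The RefSeq promoter sequences that could be matched for the genes that changed are those of Kcnj2, Kcnh1 and Hcn4, which are shown because 1 rose and 2 fell. The 250 bases before the RefSeq start of each gene are given 5′ to 3′ on the gene's strand, which is plus for all 3, from build GRCm38.p6. Kcnj2 is read from chr11:111065914-111066163, Kcnh1 from chr1:192190527-192190776 and Hcn4 from chr9:58822699-58822948. Capitals mark matches to 3 motifs on either strand. The letters CAGAC, whose other strand reads GTCTG, are known from SMAD binding. The palindrome GGCGCC is known from the same factors. The letters AGGTCA are the core site of nuclear receptors such as those for retinoic acid, and a match on the other strand appears as TGACCT. No 2 of these matches overlap.
Kcnj2: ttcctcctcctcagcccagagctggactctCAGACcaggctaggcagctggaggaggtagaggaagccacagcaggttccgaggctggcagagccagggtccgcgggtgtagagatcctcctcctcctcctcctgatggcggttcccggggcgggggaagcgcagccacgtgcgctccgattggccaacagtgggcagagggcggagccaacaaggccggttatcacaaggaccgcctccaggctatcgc
Kcnh1: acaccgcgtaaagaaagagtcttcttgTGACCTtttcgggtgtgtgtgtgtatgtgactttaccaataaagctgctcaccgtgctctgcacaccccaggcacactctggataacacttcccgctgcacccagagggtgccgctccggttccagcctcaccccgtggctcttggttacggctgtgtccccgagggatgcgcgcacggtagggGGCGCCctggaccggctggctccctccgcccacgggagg
Hcn4: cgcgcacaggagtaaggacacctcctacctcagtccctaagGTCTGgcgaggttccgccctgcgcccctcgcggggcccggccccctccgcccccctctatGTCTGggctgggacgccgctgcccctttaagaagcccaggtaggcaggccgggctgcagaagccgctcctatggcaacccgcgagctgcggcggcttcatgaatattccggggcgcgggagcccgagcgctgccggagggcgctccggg
Kcnj2 held 1 match to CAGAC, Hcn4 held 2, and Kcnh1 held 1 match each to GGCGCC and AGGTCA. Among 32851 mouse promoter windows of the same length, 42.2% held CAGAC, 9.59% GGCGCC and 14.0% AGGTCA on either strand. Among the 125 windows of the 90 channel genes that matched the table, 47.2%, 17.6% and 7.2% held them in the same order. A match describes these letters only and does not show binding. The GC content was 65.6% in the Kcnj2 window, 62% in that of Kcnh1 and 71.2% in that of Hcn4.

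Levels of different genes are compared per length, as CPM per kilobase of merged exon. On that scale the channel genes were led by a small group, in which the 5 highest made up 43.6% and the 10 highest 64.8% of the summed level of all 123. In the mutants the order of mean level was Kcne2 with 17.3 ± 1.40 CPM per kilobase, Kcnj2 with 16.5 ± 4.76, Kcnk5 with 13.1 ± 0.362, Kcnk6 with 11.7 ± 1.88, Kcnq1 with 10.9 ± 0.768, Kcnh1 with 9.59 ± 0.530 and Cacnb3 with 7.43 ± 0.067 (SD, n = 3). In the controls the order was Kcnh1 with 14.6 ± 2.11 CPM per kilobase, Kcnk6 with 13.7 ± 2.61, Kcne2 with 13.6 ± 5.31, Kcnk5 with 13.5 ± 0.914, Kcnq1 with 13.1 ± 1.45, Cacnb3 with 8.71 ± 0.835 and Kcnj2 with 6.75 ± 0.740 (SD, n = 3). The first 5 control means have overlapping SDs, so no order among them is read. In the mutants the SD of Kcnj2 overlaps those of Kcne2, Kcnk5 and Kcnk6, so its place among them is not read. Kcnj2 was thus among the highest in the mutants and below those 5 and Cacnb3 in the controls.

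**Figure D2:**
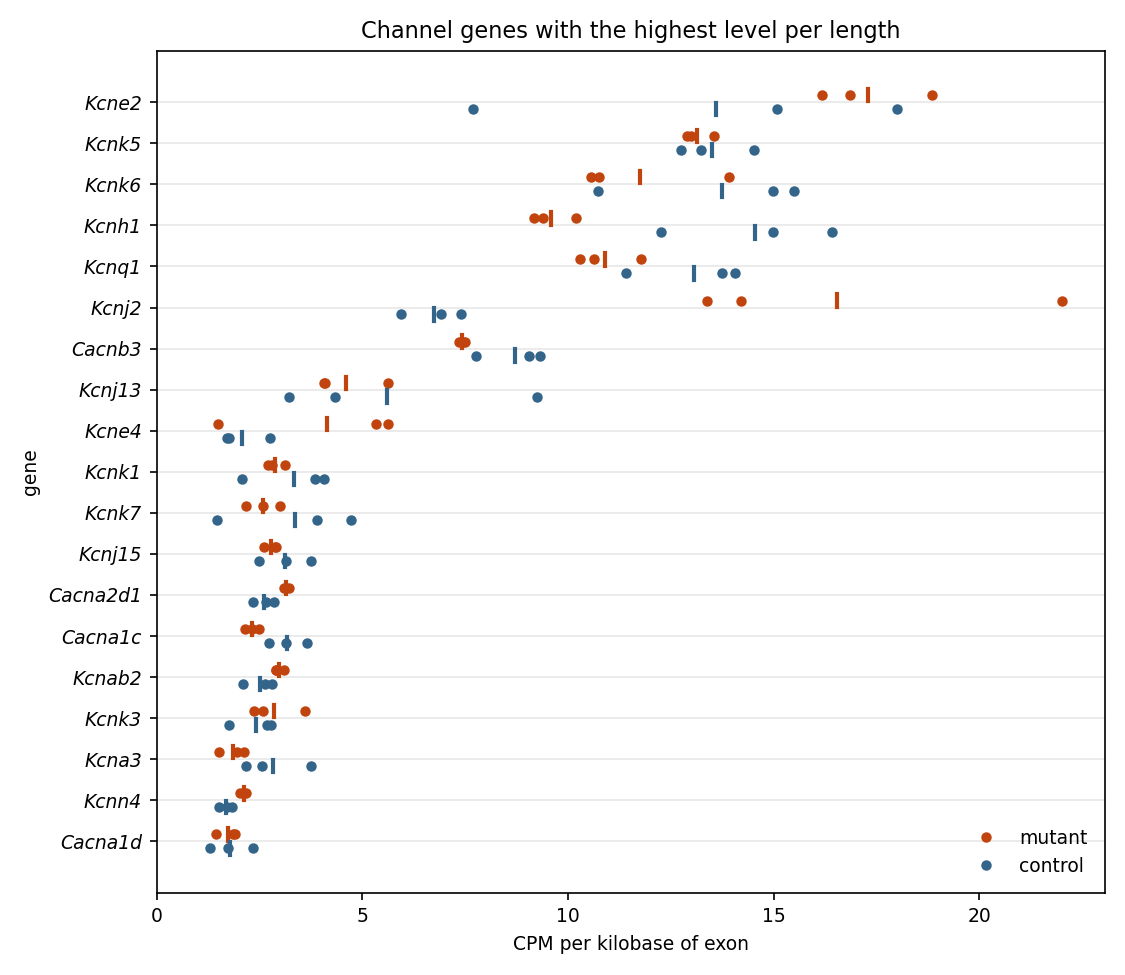
Channel genes among the 20 with the highest mean level per length, 1 of which is not shown, as values by library (CPM per kilobase of exon, x axis from 0), with 1 point per library and a bar at the mean of each group of 3, mutants above controls in each row. Kcnj2 stands at 16.5 in the mutants and 6.75 in the controls, while Kcnk5 stands at 13.1 and 13.5.

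Summed within families, again per kilobase, voltage-gated potassium channel alpha subunits stood at 33.6 ± 1.27 CPM per kilobase in the mutants and 43.3 ± 0.471 in the controls. Inward rectifiers stood at 25.6 ± 5.69 in the mutants and 17.3 ± 3.98 in the controls, tandem-pore channels at 35.1 ± 1.59 and 38.2 ± 4.45, and potassium channel auxiliary subunits at 29.5 ± 2.34 and 23.4 ± 4.84. Without Kcnj2 the inward rectifiers summed to 10.2, 8.76 and 8.35 CPM per kilobase in mutant replicates 1, 2 and 3 and to 9.94, 14.3 and 7.24 in control replicates 1, 2 and 3, so the groups overlapped. HCN channels summed to 1.09 ± 0.253 in the mutants and 3.12 ± 1.13 in the controls (SD, n = 3 each). All channel genes together came to 149 ± 8.84 in the mutants and 152 ± 13.5 in the controls. The mutant and control libraries did not overlap in the voltage-gated potassium, inward rectifier and HCN sums and overlapped in the sum over all channel genes. These sums were not tested.

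**Figure D3:**
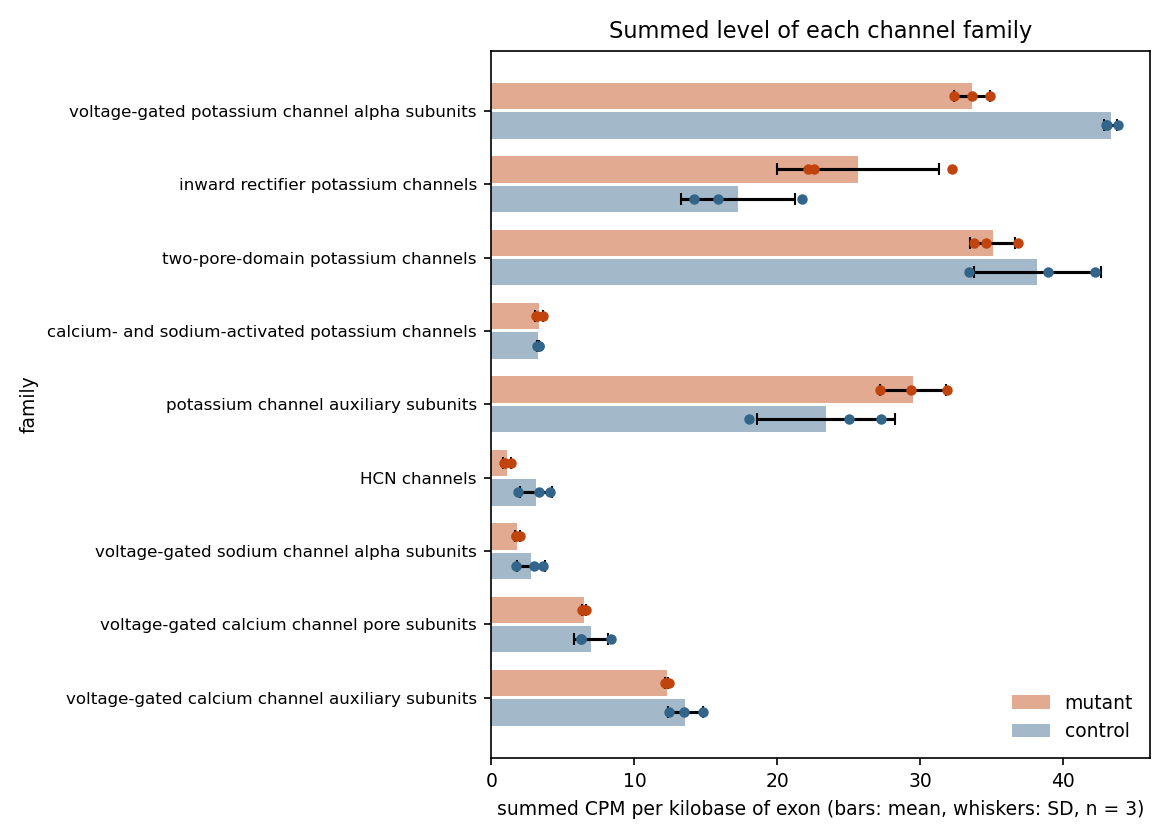
Summed CPM per kilobase of exon (x axis from 0) of the genes of each channel family, as the mean of 3 libraries with SD and 1 point per library, mutants above controls. The voltage-gated potassium sum is 33.6 in the mutants and 43.3 in the controls, and the inward rectifier sum is 25.6 in the mutants and 17.3 in the controls.

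Of 40 voltage-gated potassium channel alpha subunit genes, 20 were tested, of which 0 rose and 1 fell, with a median log2 fold change of -0.17. The gene that fell was Kcnh1 (ENSMUSG00000058248.12, chromosome 1 of GRCm38 from 192190774 to 192510159 on the plus strand, in GENCODE as for all gene positions here), which encodes the EAG1 channel. It had 68.9, 67.3 and 74.7 CPM in mutant replicates 1, 2 and 3, and 109.8, 89.9 and 120.4 CPM in control replicates 1, 2 and 3. Every mutant library was below every control library. On the log2 scale the difference was -0.60 ± 0.11 (SE, edgeR adjusted p = 0.0175), a level 1.52-fold lower. Leaving out control replicate 3 (adjusted p = 0.0589), mutant replicate 1 (0.0631) or mutant replicate 2 (0.110) ended the call.

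Kcnq1, which encodes a slowly activating channel that pairs with Kcne subunits, averaged 44.6 ± 3.14 CPM in the mutants and 53.5 ± 5.93 CPM in the controls (SD, n = 3 each), with overlapping groups and an edgeR adjusted p of 0.310.

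A pair of low genes of this family had a log2 fold change above 1 in size without passing the test. Kcna5, which encodes Kv1.5, a channel of pulmonary artery smooth muscle, had 33, 37 and 20 counts in mutant replicates 1, 2 and 3 and 14, 9 and 6 in control replicates 1, 2 and 3. The difference, mutant minus control, was 1.68 ± 0.44 in log2 units (SE, edgeR adjusted p = 0.0752), and the groups did not overlap. It passed without mutant replicate 3 (adjusted p = 0.0364) and with no low-count filter (0.0352). Kcnh6, a relative of the cardiac hERG channel gene, had 16, 15 and 20 counts in the mutants and 26, 45 and 59 in the controls, a log2 difference of -1.35 ± 0.38 (SE, adjusted p = 0.106). It passed without control replicate 1 (adjusted p = 0.0117).

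The inward rectifier family has 15 genes, of which 7 were tested, with 1 higher and 0 lower. The median log2 fold change was -0.25, with 2 genes above 0 and 5 below. Kcnj2 (ENSMUSG00000041695.2, chromosome 11 from 111066164 to 111076821 on the plus strand) encodes Kir2.1, the channel that holds the resting voltage of many endothelial cells. It had 119.8, 72.9 and 77.3 CPM in mutant replicates 1, 2 and 3, and 32.4, 40.3 and 37.6 CPM in control replicates 1, 2 and 3. Mutant replicate 1 stood above the other mutants, and the lowest mutant library was above the highest control library. Mutants differed from controls by 1.29 ± 0.19 on the log2 scale (SE, edgeR adjusted p = 0.00971), a level 2.45-fold higher. The call was kept in all 13 alternatives, with log2 fold changes of 1.03 to 1.42 and adjusted p up to 0.0487.

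The other tested inward rectifiers had log2 fold changes from -0.77 to 0.16. Kcnj15 averaged 17.6 ± 1.01 CPM in the mutants and 19.8 ± 3.99 CPM in the controls (adjusted p = 0.694). Kcnj13 stood at 7.14, 5.21 and 5.17 CPM in the mutants and 5.51, 11.7 and 4.10 CPM in the controls (edgeR adjusted p = 0.810). Its log2 fold change was -0.26 with all libraries and 0.28 without control replicate 2. For 49.1% of its exon length Kcnj13 overlaps Gigyf2 on the opposite strand, and reads of the pair cannot be told apart without strand, whose use in counting is not given in the sources used here.

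Of 14 tandem-pore potassium channel genes, whose products carry background potassium current, 7 were tested and edgeR called 0. At an unadjusted p under 0.05 the count was also 0, and DESeq2 and limma-voom called 0. Kcnk5, which encodes TASK-2, had 43.9, 44.2 and 46.1 CPM in the mutants and 43.4, 45.1 and 49.4 CPM in the controls, a log2 difference of -0.04 ± 0.09 (SE). Kcnk6, which encodes TWIK-2, averaged 48.8 ± 7.79 CPM in the mutants and 57.0 ± 10.8 CPM in the controls (SD, n = 3 each). Kcnk3, which encodes TASK-1 and is mutated in some families with pulmonary arterial hypertension, averaged 11.3 ± 2.63 CPM in the mutants and 9.57 ± 2.24 CPM in the controls (adjusted p = 0.681). The groups overlapped for all 7.

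The calcium-activated channels that carry endothelial hyperpolarization were detected and not called. Of 8 genes of the calcium- and sodium-activated family, 4 were tested, and edgeR called 0, with 0 at an unadjusted p under 0.05. DESeq2 and limma-voom also called 0. Kcnn4, which encodes the intermediate-conductance channel, had 10.4, 11.2 and 10.9 CPM in the mutants and 8.77, 7.76 and 9.35 CPM in the controls. The groups did not overlap, and its log2 difference was 0.32 ± 0.15 (SE, adjusted p = 0.362). Kcnn3, which encodes a small-conductance channel, had 12.5, 6.59 and 9.41 CPM in the mutants and 12.1, 13.5 and 13.1 CPM in the controls (adjusted p = 0.394). Kcnma1, the large-conductance channel gene typical of smooth muscle, averaged 0.889 ± 0.260 CPM in the mutants and 0.925 ± 0.00853 CPM in the controls.

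**Figure D4:**
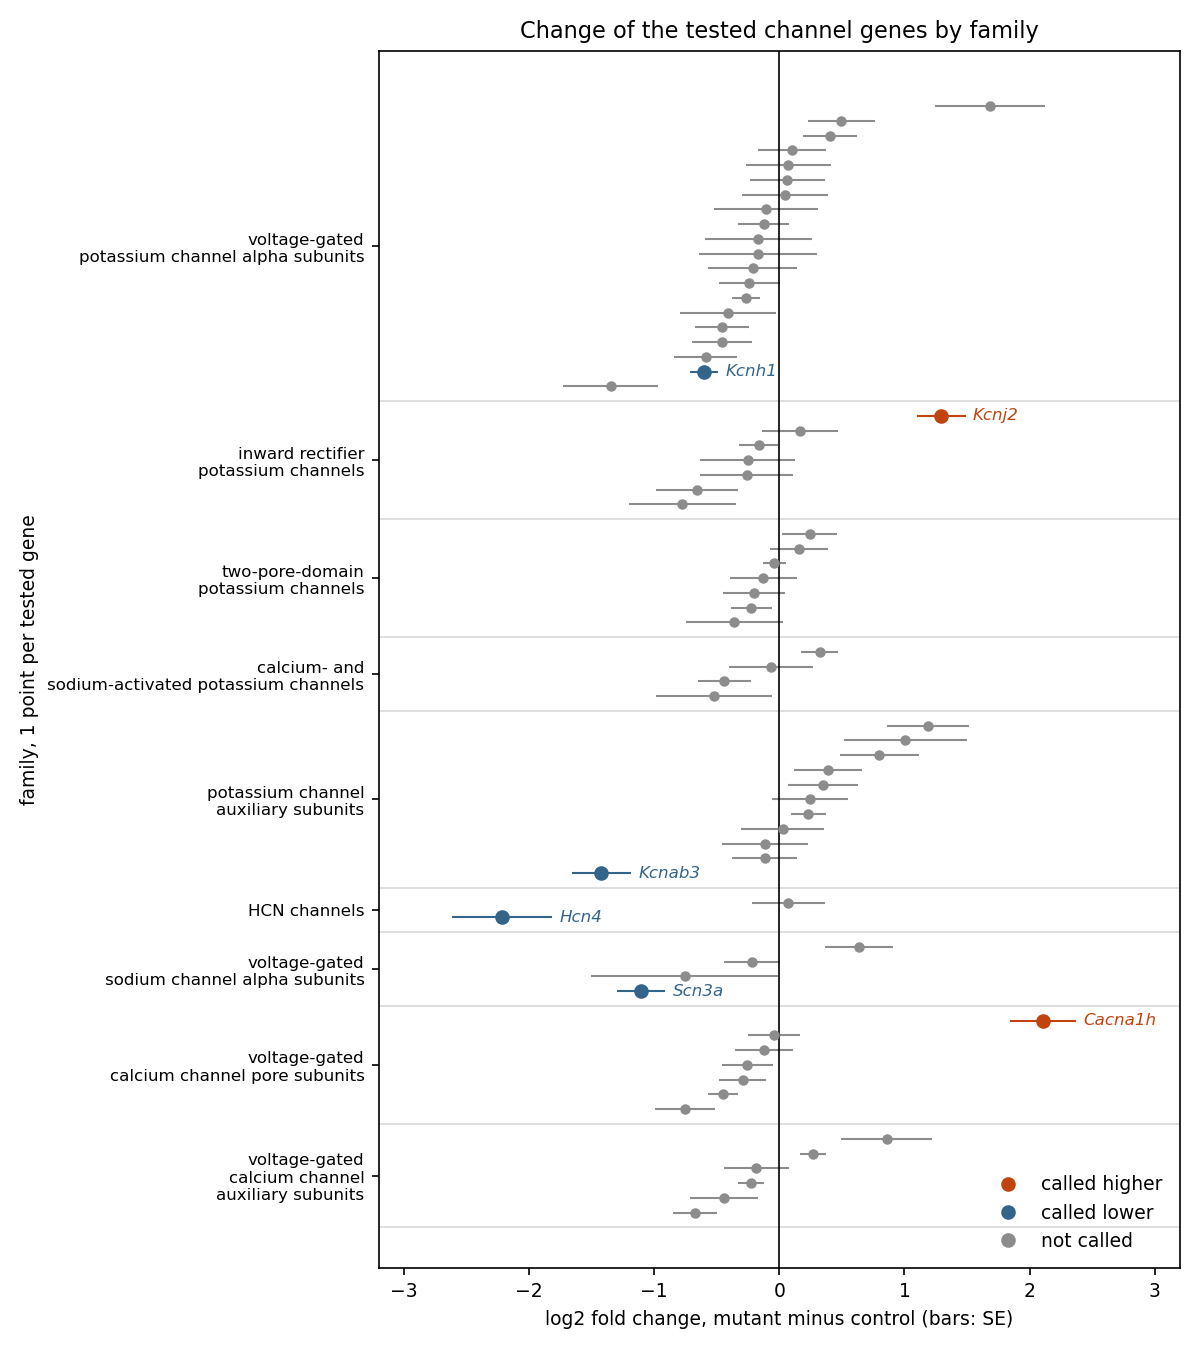
Log2 fold change, mutant minus control (x axis), of the 68 tested channel genes, 1 point per gene with its SE, grouped by family. The 2 called higher and the 4 called lower are named.

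Among potassium channel auxiliary subunits 11 of 15 were tested, with 0 higher, 1 lower and a median log2 fold change of 0.25. The gene that fell was Kcnab3 (ENSMUSG00000018470.8, chromosome 11 from 69326258 to 69333042 on the plus strand), a beta subunit of Kv1 channels. It had 2.03, 1.44 and 1.95 CPM in mutant replicates 1, 2 and 3, from 37, 23 and 40 counts, and 4.71, 4.20 and 5.69 CPM in control replicates 1, 2 and 3, from 101, 59 and 118 counts. Every control library was well above every mutant library. On the log2 scale the difference was -1.42 ± 0.24 (SE, edgeR adjusted p = 0.00920), a level 2.68-fold lower, and the call ended without mutant replicate 2 (adjusted p = 0.0602). An antisense gene, Kcnab3os, overlaps 5.13% of its exon length.

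Kcne2, a small partner of Kcnq1 and other channels, was among the highest channel genes per length and was not called. It had 33.3, 28.6 and 29.8 CPM in the mutants and 31.8, 26.6 and 13.6 CPM in the controls, and only control replicate 3 stood apart (edgeR adjusted p = 0.643). Kcne4, an inhibitory partner of Kv channels, had 14.9, 14.2 and 3.95 CPM in mutant replicates 1, 2 and 3 and 4.53, 7.33 and 4.68 CPM in control replicates 1, 2 and 3. Mutant replicate 3 lay below every control, and the log2 difference was 1.01 ± 0.49 (SE, adjusted p = 0.433). Without that library it was 1.42 (adjusted p = 0.00907). Kcnip2, which encodes a partner of Kv4 channels, had 39, 33 and 41 counts in the mutants and 20, 7 and 25 counts in the controls (log2 fold change 1.19, SE 0.32, adjusted p = 0.0920). Kcnab2 averaged 16.5 ± 0.635 CPM in the mutants and 14.0 ± 2.09 CPM in the controls (adjusted p = 0.521).

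Hcn4 (ENSMUSG00000032338.9, chromosome 9 from 58823412 to 58863175 on the plus strand) is the main pacemaker channel gene of the heart. Its mean level per length was the highest of the HCN genes in both groups, though Hcn2 lay above it in mutant replicate 1. Hcn4 had 2.25, 4.96 and 3.22 CPM in mutant replicates 1, 2 and 3 and 17.9, 21.8 and 8.78 CPM in control replicates 1, 2 and 3. The controls spread over a wider range than the mutants, and the groups did not overlap. The difference, mutant minus control, was -2.22 ± 0.40 in log2 units (SE, edgeR adjusted p = 0.0288), a level 4.65-fold lower. The direction was the same in all 13 alternatives, with log2 fold changes of -2.55 to -1.95, while the call held in 6 of them. It was lost on leaving out control replicate 1 (adjusted p = 0.0857), control replicate 2 (0.0713), mutant replicate 1 (0.0661), mutant replicate 2 (0.0537) or mutant replicate 3 (0.102), with limma-voom (0.0716) and with no low-count filter (0.0581).

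Hcn2 stood at 1.26, 1.38 and 1.12 CPM in the mutants and 1.03, 1.42 and 1.16 CPM in the controls (edgeR adjusted p = 0.939). Hcn3 was not tested, with 39 counts over all 6 libraries. Cardiomyocytes, which reach the lung along the pulmonary veins, also express Hcn4. The 22 cardiomyocyte markers summed to 71.4, 88.5 and 69.9 CPM in mutant replicates 1, 2 and 3 and to 85.1, 96.0 and 59.5 CPM in control replicates 1, 2 and 3, so the groups overlapped. Of 13 tested markers edgeR, DESeq2 and limma-voom called 0, with 1 at an unadjusted p under 0.05 in edgeR. The list was led by Myh7, with 27.4, 28.8 and 21.9 CPM in the mutants and 40.3, 37.8 and 14.8 CPM in the controls, and by Tbx5, with 9.55, 14.5 and 11.1 CPM in the mutants and 14.8, 13.2 and 7.57 CPM in the controls. Nppa, Sln and Nkx2-5 were each under 1 CPM in every library. The part of cardiomyocytes in the Hcn4 difference was not tested.

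Among sodium channel alpha subunit genes 4 of 9 were tested, with 0 higher and 1 lower. Scn3a (ENSMUSG00000057182.14, chromosome 2 from 65457118 to 65567627 on the minus strand), which encodes the Nav1.3 channel of immature neurons, had 4.72, 3.77 and 4.54 CPM in mutant replicates 1, 2 and 3, from 86, 60 and 93 counts. In control replicates 1, 2 and 3 it had 9.29, 7.76 and 10.9 CPM, from 199, 109 and 227 counts. The groups did not overlap. Mutants differed from controls by -1.10 ± 0.19 on the log2 scale (SE, edgeR adjusted p = 0.0115), a level 2.15-fold lower, and the call ended without mutant replicate 2 (adjusted p = 0.0770).

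Scn3a lies in a cluster of sodium channel genes on chromosome 2. In the same cluster Scn2a had 30 counts over all 6 libraries, Scn1a 10 and Scn9a 1. The related Scn7a, which is not a member, averaged 889.8 ± 196 CPM in the mutants and 2467 ± 208 CPM in the controls (SD, n = 3 each). As a ratio of CPM, which is not per length and says nothing of relative level, the reads of Scn3a came to 0.448% to 0.567% of those of Scn7a in the mutants and 0.291% to 0.440% in the controls. Whether any Scn7a reads were counted for Scn3a was not tested.

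Of the 15 markers of neurons and Schwann cells, 4 were tested, with Stmn2 called lower. The list summed to 101, 96.0 and 98.1 CPM in the mutants and 177, 145 and 168 CPM in the controls, of which Stmn2 made up 72.2, 69.8 and 67.2 CPM and 146, 114 and 144 CPM. The next highest were Mbp, with 18.6 to 22.2 CPM in the mutants and 16.3 to 24.1 CPM in the controls, and Ncam1, with 3.96 to 6.68 CPM in the mutants and 4.41 to 5.09 CPM in the controls, and neither was called. Th was at 0 counts in every library, and Elavl3, Elavl4, Snap25 and Sox10 were under 1 CPM in each. The part of these cells in the Scn3a difference was not tested.

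Scn4a, the sodium channel gene of skeletal muscle, had 6.81, 3.14 and 4.00 CPM in the mutants and 1.59, 14.9 and 7.67 CPM in the controls. Its controls spanned the whole range of the 6 libraries, and its log2 fold change was -0.76 with all libraries and 0.02 without control replicate 2 (adjusted p = 0.716 and 0.998).

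Of 10 calcium channel pore genes 7 were tested, with 1 higher and 0 lower. Cacna1h (ENSMUSG00000024112.16, chromosome 17 from 25374285 to 25433783 on the minus strand) encodes Cav3.2, a T-type channel that opens at voltages near rest. It had 8.78, 9.42 and 10.4 CPM in mutant replicates 1, 2 and 3, from 160, 150 and 214 counts. In control replicates 1, 2 and 3 it had 2.24, 3.13 and 1.40 CPM, from 48, 44 and 29 counts. The mutant libraries lay close together, and all were above all controls. On the log2 scale the difference was 2.11 ± 0.26 (SE, edgeR adjusted p = 0.00237), a level 4.31-fold higher. The call was kept in all 13 alternatives, with log2 fold changes of 1.85 to 2.38 and adjusted p up to 0.0200. For 1.62% of its exon length it overlaps Tpsg1 on the opposite strand.

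The other 6 tested pore genes, L-type, P/Q-type, R-type and T-type, had log2 fold changes from -0.75 to -0.04. Cacna1c, which encodes the L-type channel Cav1.2, had 52.8, 45.6 and 49.0 CPM in the mutants and 58.0, 77.5 and 66.5 CPM in the controls. The groups did not overlap, but the log2 difference of -0.45 ± 0.12 (SE) did not pass (edgeR adjusted p = 0.0815). It was called by DESeq2 (adjusted p = 0.0239), by edgeR on leaving out control replicate 1 (0.0312) or the low-count filter (0.0452), and in none of the other 10 alternatives, where adjusted p reached up to 0.332. Cacna1d, another L-type gene, averaged 21.8 ± 3.27 CPM in the mutants and 22.6 ± 6.53 CPM in the controls. Cacna1a averaged 5.66 ± 0.885 CPM in the mutants and 6.94 ± 0.889 CPM in the controls.

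Of 8 calcium channel auxiliary genes 6 were tested, and edgeR called 0, with 3 at an unadjusted p under 0.05. DESeq2 called 1, Cacnb2, and limma-voom 0. Cacnb2, a beta subunit gene, had 8.07, 7.85 and 7.27 CPM in the mutants and 11.3, 15.5 and 10.4 CPM in the controls. The difference, mutant minus control, was -0.67 ± 0.18 in log2 units (SE, edgeR adjusted p = 0.0826, DESeq2 adjusted p = 0.0259). Cacna2d1, an alpha2delta subunit gene, had 40.0, 38.4 and 39.0 CPM in the mutants and 29.0, 32.9 and 35.4 CPM in the controls (edgeR adjusted p = 0.261). Cacnb3 averaged 29.8 ± 0.268 CPM in the mutants and 34.9 ± 3.35 CPM in the controls (adjusted p = 0.376).

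The remaining 55 channel genes were not tested. Of these, 47 had between 1 and 59 counts over all 6 libraries, among them Kcnh4 with 59, Kcnk12 with 56, Cacna2d3 with 48 and Kcnab1 with 41. A further 8 had 0 counts in every library, which within 1 library allows up to the floor of 0.140 to 0.214 CPM. Among them were Kcna10, Kcnc4, Kcnh5, Kcnj6, Kcnk15, Kcnk16 and Kcnv1. With no low-count filter the 47 with counts were fitted in edgeR, which called 0 of them, with 0 at an unadjusted p under 0.05.

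Genes that work beside these channels were read from the same fit. Of 20 tested partner proteins 0 rose and 1 fell, with a median log2 fold change of 0.00. The gene that fell was Scn3b, a beta subunit of sodium channels, with 237, 188 and 208 CPM in mutant replicates 1, 2 and 3 and 534, 421 and 406 CPM in control replicates 1, 2 and 3. Mutants differed from controls by -1.11 ± 0.13 on the log2 scale (SE, edgeR adjusted p = 0.00157), and the call held in all 13 alternatives. Scn3b and the alpha subunit gene Scn3a were both lower.

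Of 19 tested genes of calcium release, store-operated entry and calcium export, 1 rose and 3 fell. Itpr1, which encodes an IP3 receptor that releases stored calcium, averaged 192 ± 16.2 CPM in the mutants and 123 ± 4.66 CPM in the controls, a log2 fold change of 0.64. Atp2a3, which encodes the calcium pump SERCA3, averaged 173 ± 12.0 CPM in the mutants and 376 ± 25.2 CPM in the controls, a log2 fold change of -1.12. Itpr3, another IP3 receptor gene, and Atp2b1, a plasma membrane calcium pump gene, had log2 fold changes of -0.48 and -0.41 (edgeR adjusted p = 0.0094 and 0.0162). Atp2b1 was no longer called on leaving out control replicate 3 (adjusted p = 0.0684) or mutant replicate 1, 2 or 3 (0.0621, 0.0835 and 0.0513).

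Of 29 other tested cation channel genes 1 rose and 0 fell. That gene was Trpc4, which encodes a receptor-operated calcium entry channel, with 1.10, 2.26 and 1.76 CPM in the mutants and 0.233, 0.427 and 0.434 CPM in the controls (log2 fold change 2.22, SE 0.41, edgeR adjusted p = 0.0161). Leaving out control replicate 2 (adjusted p = 0.0558) or mutant replicate 2 (0.0954) ended its call. The flow-sensing channel gene Piezo1 averaged 606 ± 13.8 CPM in the mutants and 632 ± 42.3 CPM in the controls (adjusted p = 0.799). Of 20 tested chloride channel genes 2 rose and 0 fell, and these were Clca3a1 and Clca2, calcium-activated chloride channel regulators, with log2 fold changes of 2.10 and 2.98. Of 11 sodium pump genes edgeR called 0, with 2 at an unadjusted p under 0.05, and DESeq2 and limma-voom also called 0.

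Markers of smooth muscle and pericytes, which also express Kcnj2, Kcna5 and Cacna1h, summed to 718, 903 and 691 CPM in mutant replicates 1, 2 and 3 and to 683, 732 and 456 CPM in control replicates 1, 2 and 3. Of these 17 markers edgeR called 0, with 1 at an unadjusted p under 0.05, limma-voom called 0 and DESeq2 called 1, Rgs5. The groups of summed levels overlapped. Of the 17 markers, 11 had a log2 fold change above 0 and 6 below, with a median of 0.14. Fibroblast markers summed to 1788, 2089 and 1420 CPM in the mutants and 1776, 1780 and 1205 CPM in the controls, and epithelial markers to 3338, 3602 and 3157 CPM and 4565, 3798 and 2437 CPM. The part of these cells in the changes of channel genes was not tested.

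**Figure D5:**
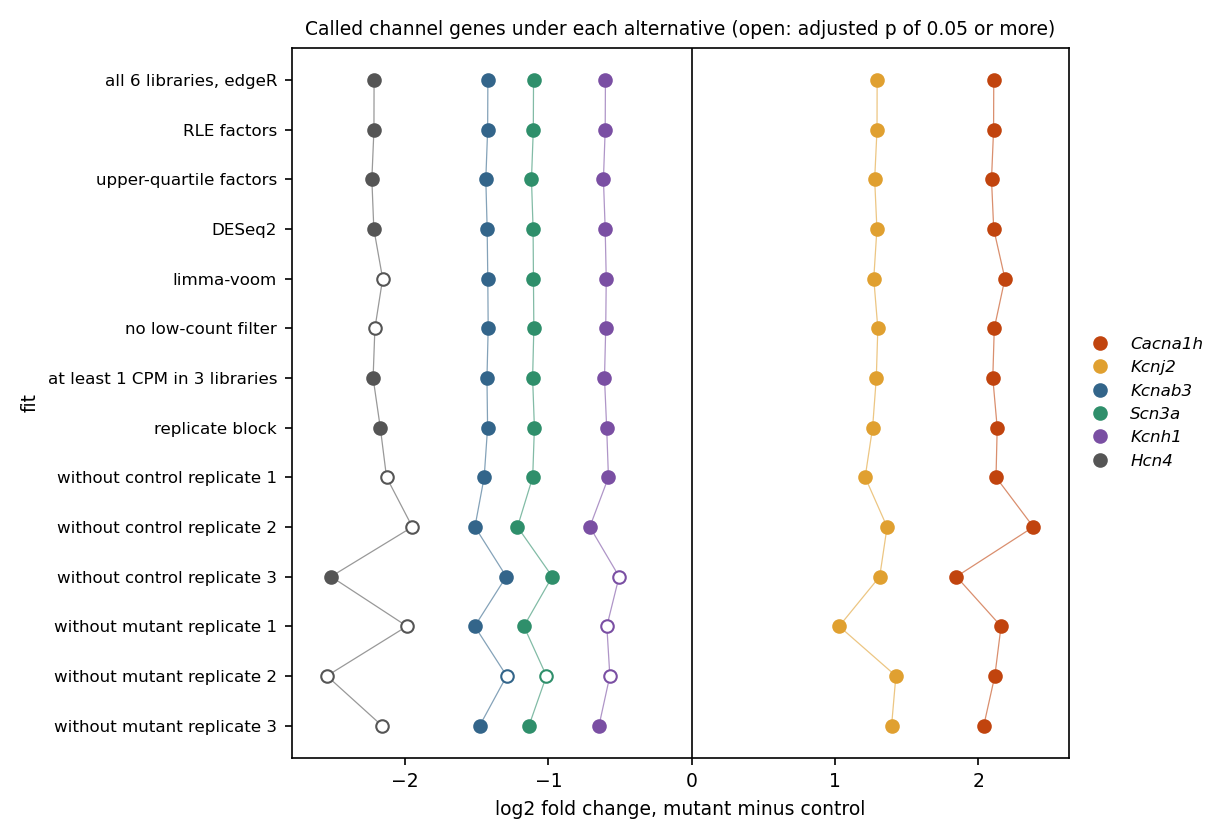
Log2 fold change, mutant minus control (x axis), of the 6 called channel genes in the edgeR fit of all 6 libraries and 13 alternatives (rows), with filled points where the adjusted p was under 0.05. Cacna1h and Kcnj2 are filled in every row, and Hcn4 is open in 7 rows although it stays between -2.55 and -1.95.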

How the data were processed

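The deposited files hold whole-number counts of reads per gene and library, made by the authors. Per the submitters' processing notes the build was mm10 and DESeq2 was used; no source used here gives the aligner, the counter or the use of strand. The rows that name no gene were left out. Reads matched to no gene came to 53.9% to 58.2% per library, and ambiguous reads to 0.288% to 0.366%.

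Counts were tested with edgeR 4.0.16 (R 4.3.3; quasi-likelihood test, robust, TMM factors, filterByExpr), mutant against control, with Benjamini-Hochberg adjustment over all tested genes and a threshold of 0.05. The step was tested on simulated data. DESeq2 1.42.0 and limma 3.58.1 (voom) were alternatives. Lengths are merged exons of GENCODE on GRCm38, on which all 123 symbols were found; 26 of the 68 tested overlap exons of another gene. Replicate numbers were not used as pairs in the main fit. Over genes, deviations from group means correlated at -0.01, 0.02 and 0.20 between mutant and control libraries of equal replicate number. For unequal numbers the correlations ran from -0.17 to 0.14. Deviations within a group of 3 libraries sum to 0, so these values cannot settle whether the libraries were paired.

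The channel genes and the lists were chosen with earlier results of these data known. Named genes are Smad4, called members, the 8 with the smallest p, the 3 highest per family, those with a log2 fold change of at least 1 in size, the 5 highest untested, and called or leading genes of each list. Scn1a, Scn2a, Scn9a, Scn7a, Hcn3 and the low markers named beside them were chosen after their values were seen. A few genes that this rule names are not reported here.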

Additional observations from a re-analysis of the deposited data

How the results depend on the processing

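Cacna1h, Kcnj2 and Smad4 passed in all 13 alternatives. With DESeq2, 754 genes were called, 443 higher and 311 lower, among them 8 channel genes that include all 6 of the edgeR calls. With no low-count filter 115 channel genes were tested. With 1 library left out at a time, 211 to 428 genes were called, 131 to 257 higher and 80 to 204 lower, the fewest without mutant replicate 2 in each case. The calls numbered 293 on leaving out control replicate 2 and 325 on leaving out control replicate 3, and 116 were lower without mutant replicate 1. Channel genes called lower numbered 0 (without mutant replicate 2) to 5, with 2 without mutant replicate 1, and those called higher 2 to 4, with 4 without mutant replicate 3. The replicate number as a block gave 466 calls, with 3 channel genes higher (Kcna5 added) and 4 lower. The cause of these shifts was not tested.

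Among the named genes, directions turned only for genes that were not called. The other channel genes were not followed gene by gene. With limma-voom the log2 fold change of Cacna1d was 0.0011. With 1 library left out, Cacna1d ranged from -0.23 to 0.19, Hcn2 from -0.031 to 0.19, Kcnj13 from -0.54 to 0.28, Scn4a from -1.26 to 0.016, Kcnk5 from -0.079 to 0.017 and Kcnma1 from -0.31 to 0.14. With 3 libraries a group, leaving one out also removes degrees of freedom. Of the 55 channel genes under the low-count filter, 47 could be fitted without it and 0 were called.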

Other observations

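Between libraries of a group, channel genes had a larger median spread than tested genes at large, in a comparison not matched on level. Of the 123 channel genes, 17 averaged at least 10 CPM, and the part of level in the spread was not tested. The median SD of log2(CPM + 0.5) over the 68 was 0.174 in the mutants and 0.275 in the controls, against 0.136 in the mutants and 0.154 in the controls over all 14934 tested genes. Control replicate 2 was the highest of the 6 libraries for 32 of the 68 channel genes, or 47.1%, against 23.4% of all tested genes. It also had the fewest assigned reads, 14093564, and the highest share of reads that the counting matched to no gene, 58.2%. Without it 71 channel genes were tested, 34 with a log2 fold change above 0 and 37 below, and their median was -0.05, against 25 above and 43 below with all libraries. The part of this library in the median was not tested.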
